A study of Mus musculus with 12 samples.

Results

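The genes described here are 33 mouse genes of the peroxisome, taken as every probe of the array whose platform gene symbol is one of them. They comprise 12 peroxins, 4 membrane proteins and transporters, and 17 enzymes, out of 19057 gene symbols on the array. In all 66 probes carried these symbols and 50 of them were detected on at least 3 of the 12 arrays, which left 29 genes with a test. All 12 peroxins and all 4 membrane proteins were tested, and 13 of the 17 enzymes. The choice of genes used no measured value, although results of these data were known when it was made.

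Transcripts of NIH-3T3, a fibroblast line from mouse embryos, were measured on 1-colour Illumina bead arrays. Every culture carried PPARG2, the fat-cell form of the nuclear receptor PPARγ, delivered by lentivirus, and grew in high-glucose medium with blasticidin. The receptor was either wild-type or the mutant E157D, which has aspartate in place of a glutamate, and cells received 20 µM rosiglitazone, a drug that activates PPARγ, or its vehicle DMSO for 24 h. The groups were wild-type with DMSO, wild-type with rosiglitazone, E157D with DMSO and E157D with rosiglitazone, each with 3 arrays from what the design text calls 3 independent experiments. No cells without a transgene were part of the groups, so the effect of the receptor itself has no comparison here. Whether each receptor was introduced once or anew in each experiment is not stated in the labels, and the p-values measure the spread between these cultures.

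Peroxisomes are small organelles that shorten very long and branched fatty acids, make ether lipids and break down the hydrogen peroxide formed on the way. Peroxins build them: some insert membrane proteins, others carry enzymes from the cytosol into the matrix, and others drive elongation and division of the organelle. PPARs are known regulators of peroxisomal fatty acid oxidation, with PPARα the classical one in rodent liver and PPARγ the main one in fat cells, and they bind DNA as partners of RXR at direct repeats of a short half-site with 1 base between.

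Promoter windows of RefSeq, from 250 bases before to 50 bases after a gene's start on the mouse assembly GRCm38.p6, were at hand for 26 of the 33 genes, 31 windows in all. They were searched on both strands for 2 copies of the half-site AGGTCA in direct repeat with 1 base between, allowing 2 mismatches over the 12 compared positions. Such a match lay in 1268 of 32851 windows of all genes (3.86%), or 1190 of 27025 genes (4.4%), and at 2 mismatches it is loose. Among the genes described here it lay in the windows of Cat and Acox2 and in none of the other 24 genes. The Cat match began 204 bases before the start and the Acox2 match, in 1 of that gene's 2 windows, began 9 bases after it, each with 2 mismatches. No match says only that these letters are not in the window, and a match is not shown to be bound. The windows are printed 5′ to 3′ on the gene's strand for both matches, with the match in capitals, and for the thiolase pair Acaa1b and Acaa1a, whose responses differed (windows at chr2:103485104-103485403 minus strand, chr14:8258790-8259089 minus strand, chr9:119157044-119157343 minus strand and chr9:119341044-119341343 plus strand, in that order).
Cat: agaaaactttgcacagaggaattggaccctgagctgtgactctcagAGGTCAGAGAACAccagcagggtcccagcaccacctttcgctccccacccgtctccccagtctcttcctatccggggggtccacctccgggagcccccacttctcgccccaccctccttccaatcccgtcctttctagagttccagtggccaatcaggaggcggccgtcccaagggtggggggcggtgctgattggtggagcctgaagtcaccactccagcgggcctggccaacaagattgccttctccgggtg
Acox2: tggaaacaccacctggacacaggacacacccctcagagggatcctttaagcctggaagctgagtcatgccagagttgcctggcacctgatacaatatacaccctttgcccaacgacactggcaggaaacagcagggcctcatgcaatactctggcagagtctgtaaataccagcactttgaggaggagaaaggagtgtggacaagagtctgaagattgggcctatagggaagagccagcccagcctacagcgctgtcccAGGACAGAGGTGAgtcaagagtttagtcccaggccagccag
Acaa1b: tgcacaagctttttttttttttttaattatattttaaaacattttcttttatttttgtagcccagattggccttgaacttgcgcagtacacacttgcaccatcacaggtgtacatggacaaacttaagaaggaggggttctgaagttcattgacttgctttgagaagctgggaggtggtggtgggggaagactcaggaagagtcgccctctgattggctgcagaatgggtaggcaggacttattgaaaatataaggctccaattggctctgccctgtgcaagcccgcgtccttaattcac
Acaa1a: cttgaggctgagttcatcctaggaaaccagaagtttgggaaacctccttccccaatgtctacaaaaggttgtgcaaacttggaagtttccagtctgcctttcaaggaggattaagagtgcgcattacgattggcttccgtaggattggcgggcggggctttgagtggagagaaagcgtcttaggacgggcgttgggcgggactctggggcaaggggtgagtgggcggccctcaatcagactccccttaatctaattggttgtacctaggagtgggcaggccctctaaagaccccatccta
The starts of Acaa1a and Acaa1b lie 184 kb apart on chromosome 9. Laid side by side without gaps, their windows share 88 of 300 positions (29.3%), with a longest common run of 8 bases. The Acaa1a window is 53.3% G or C with 10 CG pairs, and that of Acaa1b is 43.7% with 4.

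Each array detected 16633 to 17924 of its 45281 probes (36.7% to 39.6%), and arrays of a group correlated at 0.988 to 0.994 across the 13006 tested features. The label of fibroblast was checked against 10 markers, and all were detected on all 12 arrays. Their summed linear level was 59580 to 66759 with the wild-type receptor in DMSO, 34109 to 42190 with it under rosiglitazone, 68153 to 73488 with E157D in DMSO and 48889 to 58808 with E157D under rosiglitazone. Of 9 adipocyte markers 7 had a probe and 5 were tested, and Retn and Lep were below detection. Only 1 of the 5 was detected on all 12 arrays. The summed level of the 5 was 6650 to 7461, 16703 to 17767, 4500 to 4843 and 5014 to 5492 in the same order. All 4 hepatocyte markers were below detection. The 3 probes of Pparg were below detection on every array, so the amount of either receptor could not be compared. Levels below are log2 values after background correction and quantile normalization, changes are differences of group means with limma's standard error (SE, n = 3 arrays per group), and a call is a Benjamini-Hochberg adjusted p under 0.05 over all tested features. In such bulk samples a higher level per cell and more cells of a type cannot be told apart, and the markers of fibroblasts and adipocytes moved with the results given here. Their part in those results was not tested.

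Rosiglitazone with wild-type PPARG2 raised most of the tested peroxisomal genes. Of 29, 17 rose and 1 fell, while 12.3% of all tested features were called higher and 14.4% lower. The calls took in 7 of 12 peroxins, 2 of 4 membrane proteins and 8 of 13 enzymes, and the one call in the other direction was the transporter Abcd2. The median log2 change was 0.48 for the peroxins (from −0.21 for Pex26 to 1.91 for Pex16) and 0.37 for the enzymes (from −0.01 for Agps to 4.57 for Acaa1b), against −0.03 for all tested features. Called at 2-fold or more higher were 4 peroxins and 3 enzymes, and 294 of all 13006 features. In the same comparison 9 of 10 fibroblast markers fell and all 5 tested adipocyte markers rose. Leaving out any 1 array gave 14 to 16 members higher and 0 or 1 lower.

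The same drug with E157D PPARG2 raised 6 of the 29 genes and lowered none, with 2.31% of all features called higher and 1.79% lower. The 6 were the peroxin Pex16 and the enzymes Acaa1a, Acaa1b, Acox3, Ech1 and Ephx2, and no membrane protein was called. At an unadjusted p under 0.05 stood 3 peroxins and 6 enzymes with a higher value, 1 enzyme with a lower one, Scp2 (log2 change −0.22), and no membrane protein. The share of all features at that unadjusted threshold was not counted. The median change was 0.10 for the peroxins and 0.24 for the enzymes, against −0.01 for all features. Called at 2-fold or more higher were 2 enzymes, and 87 of all 13006 features. The enzyme median was 0.08 without background correction, and it moved from −0.01 without the first E157D DMSO array to 0.47 without the first E157D rosiglitazone array. In this comparison 2 of 10 fibroblast markers fell and 2 of 5 adipocyte markers rose. The 2 responses share no array: 5 genes rose with both receptors, which is 29.4% of those that rose with the wild-type receptor and 83.3% of those that rose with E157D. Over all features 202 rose with both, 12.6% and 67.3% of the lists.

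**Figure D1:**
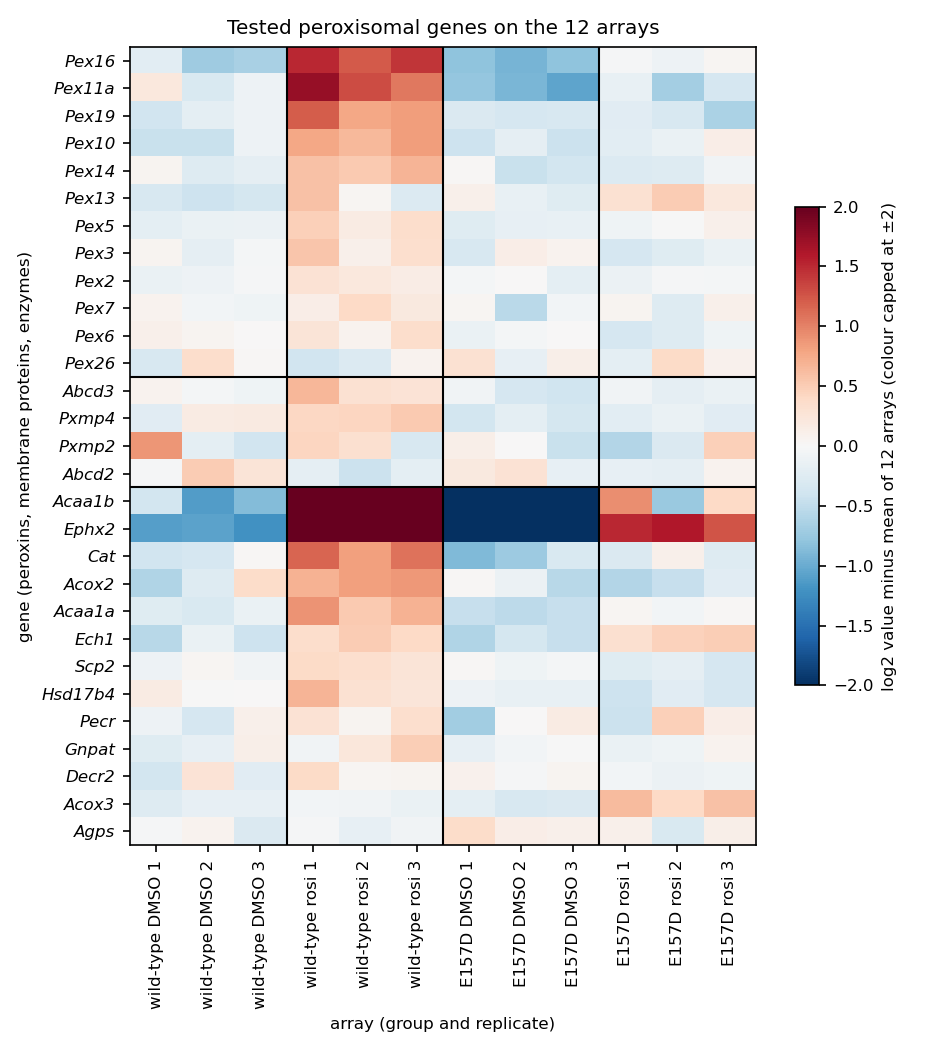
Colour shows the log2 value of each of the 29 tested genes on each of the 12 arrays minus the gene's mean over the 12 arrays (capped at ±2), with arrays by group and genes by class, sorted by response with the wild-type receptor. The wild-type rosiglitazone arrays are the highest group for 10 of 12 peroxins and 10 of 13 enzymes, a share that was not counted over all features.

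In DMSO, without the drug, E157D cells had lower levels of 2 of the 29, Acaa1b and Ephx2, and higher levels of none, while 0.7% of all features were called lower and 0.423% higher. No peroxin was called, although Pex11a passed in 6 of 19 other settings (adjusted p from 0.00979). Of the 12 peroxins 2 had an unadjusted p under 0.05, both lower, and the share of all features at that threshold was not counted. The medians were −0.06 for the peroxins and −0.08 for the enzymes, against 0.01 for all features. Of the adipocyte markers 2 of 5 were lower in E157D cells, and of the fibroblast markers none was called.

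Under rosiglitazone E157D cells had lower levels of 17 of the 29 genes and a higher level of 1, Acox3, while 9.26% of all features were called lower and 10.5% higher. The lower genes were 8 of 12 peroxins, 2 of 4 membrane proteins and 7 of 13 enzymes, with medians of −0.51 for the peroxins and −0.57 for the enzymes against 0.02 for all features. The enzyme median was −0.34 without background correction, −0.36 with the authors' values and −0.26 without the filter or with detection on all 12 arrays. This comparison uses the same wild-type rosiglitazone arrays as the first, so the 2 are not independent. All 5 tested adipocyte markers were lower in E157D cells and 5 of 10 fibroblast markers higher. Median scaling in place of quantile normalization moved the share of higher calls among all features from 53.2% to 38.6%, while the members stood at 1 higher and 16 to 18 lower in every other setting that kept all arrays.

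**Figure D2:**
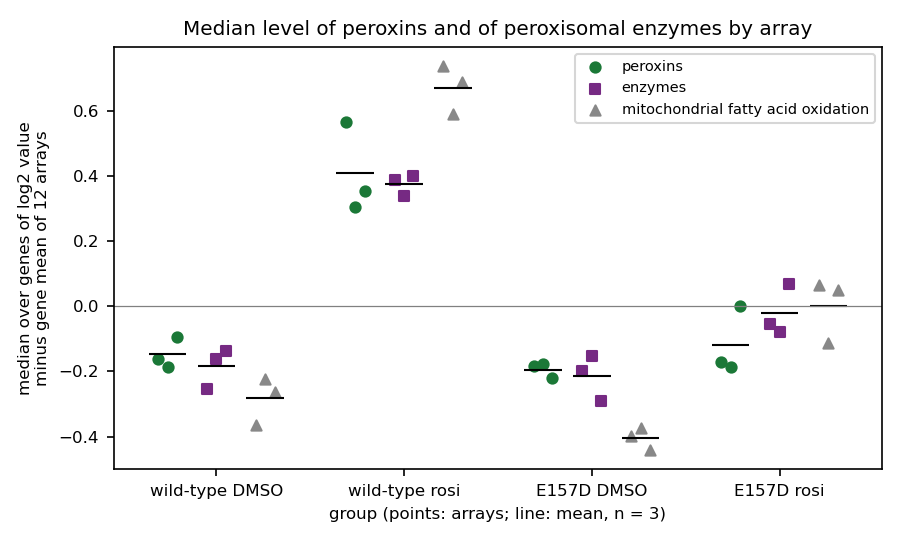
Each point is the median, over the 12 peroxins, 13 enzymes or 18 genes of mitochondrial fatty acid oxidation, of the log2 value minus the gene's mean over 12 arrays, on one array; lines are group means (n = 3). Peroxins and enzymes stand at 0.41 and 0.37 in wild-type rosiglitazone cells and between −0.21 and −0.02 in the other 3 groups.

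The 2 main classes, peroxins and enzymes, were set side by side over the 4 groups. Centred on each gene's mean over all arrays, the peroxin median was −0.15 ± 0.05 (SD, n = 3) with the wild-type receptor in DMSO, 0.41 ± 0.14 with it under rosiglitazone, −0.19 ± 0.02 with E157D in DMSO and −0.12 ± 0.10 with E157D under rosiglitazone. For the enzymes these values were −0.18 ± 0.06, 0.37 ± 0.03, −0.21 ± 0.07 and −0.02 ± 0.08. In both classes every wild-type rosiglitazone array was above every other array. Among the E157D responses 1 of 12 peroxins and 5 of 13 enzymes were called, all higher, while 2.31% of all features were called higher and 1.79% lower. Whether the share called differs between the 2 classes was not tested.

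The first peroxins are those that place proteins in the peroxisomal membrane. Pex16 helps bring membrane proteins and other peroxins to the organelle. Pex16 read 8.35, 7.86 and 7.92 with the wild-type receptor in DMSO, 10.08, 9.80 and 10.00 with it under rosiglitazone, 7.76, 7.64 and 7.76 with E157D in DMSO and 8.55, 8.47 and 8.60 with E157D under rosiglitazone. The groups did not overlap in either response, and the wild-type rosiglitazone arrays were the highest. Pex16 rose by 1.91 ± 0.13 (adjusted p = 3.18e-06) with the wild-type receptor and by 0.82 ± 0.13 (adjusted p = 0.00499) with E157D, the latter 0.52 without background correction (adjusted p = 0.00157). Between the receptors it differed by −0.32 ± 0.13 (adjusted p = 0.387) in DMSO, which did not pass, and by −1.42 ± 0.13 (adjusted p = 2.56e-05) under rosiglitazone.

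Pex19 is the cytosolic chaperone and import receptor of peroxisomal membrane proteins. Pex19 read 10.52, 10.71 and 10.80 with the wild-type receptor in DMSO, 12.12, 11.67 and 11.74 with it under rosiglitazone, 10.62, 10.56 and 10.59 with E157D in DMSO and 10.68, 10.59 and 10.27 with E157D under rosiglitazone. Arrays of wild-type rosiglitazone cells were above the other 9 arrays, and the E157D arrays overlapped between treatments. Its change was 1.17 ± 0.14 (adjusted p = 0.000171) with the wild-type receptor, −0.08 ± 0.14 (adjusted p = 0.836) with E157D and −1.33 ± 0.14 (adjusted p = 6.78e-05) between receptors under rosiglitazone. A further Pex19 probe read 0.91 (adjusted p = 0.0835), −0.79 for the difference of responses (adjusted p = 0.518) and did not pass in either.

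Pex3 is the membrane anchor that receives Pex19 and its cargo. Pex3 read 9.85, 9.62 and 9.75 with the wild-type receptor in DMSO, 10.34, 9.90 and 10.12 with it under rosiglitazone, 9.47, 9.92 and 9.86 with E157D in DMSO and 9.45, 9.55 and 9.66 with E157D under rosiglitazone. Its change with the wild-type receptor, 0.38 ± 0.15 (adjusted p = 0.0768), did not pass, although the rosiglitazone arrays lay above the DMSO arrays. It passed in 5 of 19 other settings, namely without background correction (adjusted p = 0.0322), with median scaling (0.0439), with the authors' values (0.0204), with the mean of its probes (0.00248) and without the second wild-type rosiglitazone array (0.0421). A further Pex3 probe rose by 0.67 ± 0.11 (adjusted p = 0.000892). Under rosiglitazone E157D cells were lower (log2 difference −0.56 ± 0.15, adjusted p = 0.0183), a call lost without the first wild-type rosiglitazone array (adjusted p = 0.0803) and without the first or second E157D rosiglitazone array.

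Import of matrix enzymes needs receptors, a docking site and a recycling machine. Pex5 is the receptor of most matrix enzymes. Pex5 read 9.44, 9.49 and 9.51 with the wild-type receptor in DMSO, 10.10, 9.79 and 9.98 with it under rosiglitazone, 9.39, 9.46 and 9.49 with E157D in DMSO and 9.54, 9.63 and 9.73 with E157D under rosiglitazone. Wild-type rosiglitazone arrays were above all others. The change was 0.48 ± 0.10 (adjusted p = 0.00563) with the wild-type receptor and 0.19 ± 0.10 (adjusted p = 0.369) with E157D. The receptors differed by −0.32 ± 0.10 (adjusted p = 0.0476) under rosiglitazone, a call lost when any 1 array other than the second wild-type rosiglitazone array was left out (adjusted p up to 0.168).

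Pex14 forms the docking site for Pex5 in the membrane. Pex14 read 9.76, 9.46 and 9.53 with the wild-type receptor in DMSO, 10.30, 10.24 and 10.40 with it under rosiglitazone, 9.75, 9.27 and 9.35 with E157D in DMSO and 9.44, 9.46 and 9.64 with E157D under rosiglitazone. The wild-type rosiglitazone arrays stood clear of the other groups, which overlapped. Pex14 rose by 0.73 ± 0.14 (adjusted p = 0.00256) with the wild-type receptor, while E157D gave 0.06 ± 0.14 (adjusted p = 0.877) and the receptors differed by −0.80 ± 0.14 (adjusted p = 0.00182) under the drug. Pex13, its partner at the docking site, read 0.48 ± 0.19 (adjusted p = 0.0747) and 0.44 ± 0.19 (adjusted p = 0.233) with the wild-type and the E157D receptor, and neither passed. With the replicate number as a block, Pex13 passed in the first (adjusted p = 0.0454), as it did without the third wild-type rosiglitazone array (adjusted p = 0.017). Pex7, the receptor of a smaller set of matrix enzymes, read 0.27 ± 0.16 with the wild-type receptor and 0.15 ± 0.16 with E157D, and neither passed. A further Pex7 probe averaged 6.78 in DMSO and 7.26 under rosiglitazone with the wild-type receptor. With E157D it averaged 7.17 and 6.77, a change of opposite sign to the probe used.

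Pex10 and Pex2 are subunits of the membrane ubiquitin ligase that recycles the import receptor. Pex10 read 7.09, 7.10 and 7.44 with the wild-type receptor in DMSO, 8.30, 8.18 and 8.36 with it under rosiglitazone, 7.11, 7.35 and 7.10 with E157D in DMSO and 7.32, 7.40 and 7.67 with E157D under rosiglitazone. Wild-type rosiglitazone arrays lay above the rest, and the other groups overlapped. Pex10 rose by 1.07 ± 0.13 (adjusted p = 0.000198) with the wild-type receptor and read 0.28 ± 0.13 (adjusted p = 0.302) with E157D, and the receptors differed by −0.82 ± 0.13 (adjusted p = 0.00143) under rosiglitazone. Without background correction the rise was 0.61 and the difference between receptors −0.48, both called. Pex2 rose by 0.30 ± 0.10 (adjusted p = 0.0398), a call lost without any 1 of the 6 wild-type arrays or the first E157D DMSO array (adjusted p up to 0.121), and a further Pex2 probe read 0.25 (adjusted p = 0.285). Between receptors under rosiglitazone Pex2 differed by −0.27 ± 0.10 (adjusted p = 0.0706), which did not pass, and it passed in 4 of 19 other settings (adjusted p from 0.00294).

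Pex6 is an ATPase that pulls the used import receptor out of the membrane, and Pex26 is its anchor. Pex6 read 11.86, 11.80 and 11.76 with the wild-type receptor in DMSO, 12.02, 11.83 and 12.11 with it under rosiglitazone, 11.62, 11.71 and 11.76 with E157D in DMSO and 11.42, 11.49 and 11.67 with E157D under rosiglitazone. Both DMSO groups were close, and the E157D rosiglitazone arrays were below the wild-type rosiglitazone arrays. The difference between receptors under rosiglitazone was −0.46 ± 0.11 (adjusted p = 0.0108), and the response with the wild-type receptor was 0.18 ± 0.11 (adjusted p = 0.251). That response passed with median scaling (0.35, adjusted p = 0.0494) and with the authors' values (0.28, adjusted p = 0.024). Of 3 further Pex6 probes 1 rose with the wild-type receptor (0.55, adjusted p = 0.0254), and the difference between receptors did not pass with the mean of the gene's probes (adjusted p = 0.0801). Pex26 was not called in any comparison, with −0.21 ± 0.20 and 0.01 ± 0.20 for the 2 responses.

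Pex11a elongates the peroxisomal membrane before division, and it had the largest log2 difference between receptors among the peroxins. Pex11a read 9.67, 9.15 and 9.36 with the wild-type receptor in DMSO, 11.19, 10.76 and 10.51 with it under rosiglitazone, 8.67, 8.53 and 8.39 with E157D in DMSO and 9.30, 8.76 and 9.11 with E157D under rosiglitazone. Arrays of wild-type rosiglitazone cells were the highest and the E157D DMSO arrays the lowest, without overlap. All 4 probes of the gene rose with the wild-type receptor, by 1.30 to 1.43, the one used here by 1.43 ± 0.19 (adjusted p = 0.000335). E157D gave 0.53 ± 0.19 (adjusted p = 0.17), which did not pass, while another probe rose by 0.80 (adjusted p = 0.00746). Under rosiglitazone the receptors differed by −1.76 ± 0.19 (adjusted p = 7.96e-05). In DMSO they differed by −0.86 ± 0.19 (adjusted p = 0.0635), which did not pass, while 2 further probes passed at −0.80 (adjusted p = 0.0169) and −1.17 (adjusted p = 0.00103). The probe used passed there without background correction (adjusted p = 0.0278), with the authors' values (0.0219), with detection on all 12 arrays (0.0432), with the mean of probes (0.0108), with the replicate number as a block (0.00979) and without the first wild-type rosiglitazone array (0.0348).

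**Figure D3:**
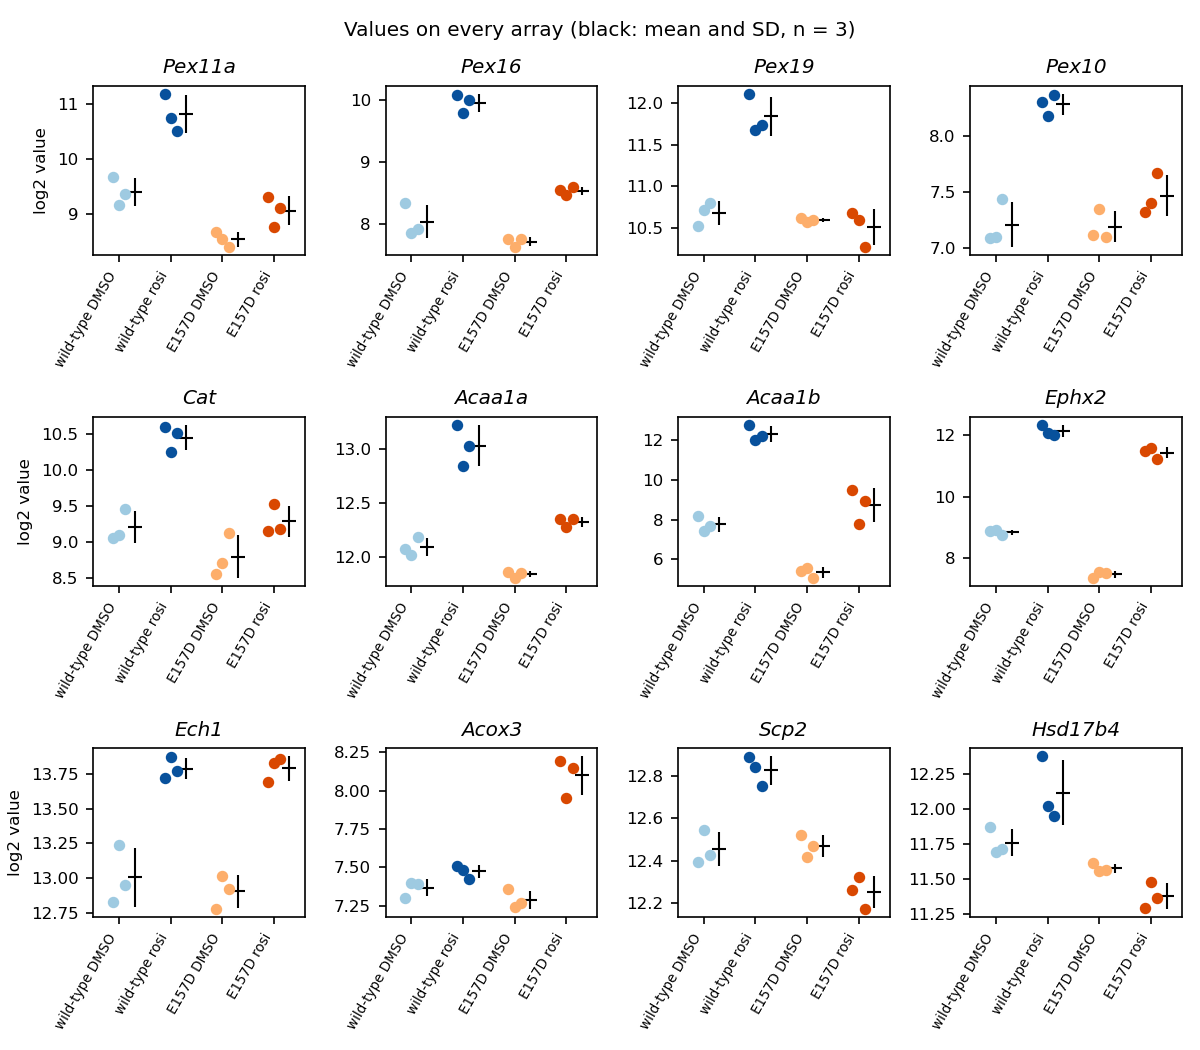
Points are log2 values of 12 of the genes on the 3 arrays of each group, with the mean and SD in black (n = 3); each panel has its own axis. Wild-type rosiglitazone arrays are highest for Pex11a, Pex16, Pex19, Pex10, Cat, Acaa1a, Acaa1b, Ephx2, Scp2 and Hsd17b4, while Ech1 is high with both receptors under the drug and Acox3 is highest with E157D.

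Of the 4 membrane proteins Abcd3, a transporter that brings branched and other fatty acyl groups into the peroxisome, is the first. Abcd3 read 10.81, 10.71 and 10.66 with the wild-type receptor in DMSO, 11.42, 11.05 and 11.02 with it under rosiglitazone, 10.67, 10.41 and 10.34 with E157D in DMSO and 10.68, 10.57 and 10.62 with E157D under rosiglitazone. The wild-type rosiglitazone arrays were above all others. Abcd3 rose by 0.43 ± 0.13 (adjusted p = 0.0271) with the wild-type receptor and read 0.15 ± 0.13 (adjusted p = 0.595) with E157D. Under rosiglitazone E157D cells were lower (log2 difference −0.54 ± 0.13, adjusted p = 0.0122). The first call was lost without the second or the third wild-type DMSO array or the first wild-type rosiglitazone array, and the other one without the latter array (adjusted p = 0.108 and 0.05). Among its further probes 1 rose by 0.80 (adjusted p = 0.00132) and 2 did not pass.

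Pxmp4 is a further protein of the peroxisomal membrane. Pxmp4 read 8.47, 8.85 and 8.88 with the wild-type receptor in DMSO, 9.11, 9.12 and 9.21 with it under rosiglitazone, 8.33, 8.51 and 8.35 with E157D in DMSO and 8.48, 8.57 and 8.47 with E157D under rosiglitazone. Arrays of wild-type rosiglitazone cells were the highest and the other groups overlapped. The change was 0.41 ± 0.12 (adjusted p = 0.0242) with the wild-type receptor and 0.11 ± 0.12 (adjusted p = 0.688) with E157D, and the receptors differed by −0.64 ± 0.12 (adjusted p = 0.00299) under the drug. The first of these calls was lost without the first wild-type DMSO array (adjusted p = 0.0768) or the first or the third wild-type rosiglitazone array. Abcd2, a transporter of very long and polyunsaturated acyl groups, was the only member called lower in the wild-type response, at −0.52 ± 0.16 (adjusted p = 0.031). This call was lost without any of 5 wild-type arrays, all but the first DMSO array (adjusted p up to 0.12), and a further Abcd2 probe had the opposite sign (0.32, adjusted p = 0.325). Without background correction it read −0.16 and did not pass (adjusted p = 0.0968). Pxmp2, a pore of the peroxisomal membrane, was detected on 5 arrays and was not called.

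The enzymes included the widest changes, led by Acaa1b, 1 of the 2 mouse thiolases that carry out the last step of peroxisomal beta-oxidation. Acaa1b read 8.16, 7.42 and 7.67 with the wild-type receptor in DMSO, 12.77, 12.01 and 12.19 with it under rosiglitazone, 5.40, 5.58 and 5.06 with E157D in DMSO and 9.47, 7.79 and 8.93 with E157D under rosiglitazone. On the E157D DMSO arrays it was detected on 1 of 3. Both treatments and both receptors stood apart, while the wild-type DMSO and E157D rosiglitazone arrays overlapped. Acaa1b rose by 4.57 ± 0.36 (adjusted p = 8.73e-06) with the wild-type receptor and by 3.39 ± 0.36 (adjusted p = 0.000325) with E157D. It was lower with E157D in DMSO (log2 difference −2.41 ± 0.36, adjusted p = 0.00574) and under rosiglitazone (−3.59 ± 0.36, adjusted p = 3.89e-05). Without background correction the E157D response was 1.57 and the difference in DMSO −0.91, which did not pass (adjusted p = 0.0583).

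Acaa1a is the other thiolase gene. Acaa1a read 12.08, 12.02 and 12.19 with the wild-type receptor in DMSO, 13.23, 12.84 and 13.03 with it under rosiglitazone, 11.87, 11.81 and 11.86 with E157D in DMSO and 12.36, 12.28 and 12.35 with E157D under rosiglitazone. The rosiglitazone arrays were above the DMSO arrays with each receptor. Acaa1a rose by 0.94 ± 0.11 (adjusted p = 0.000127) with the wild-type receptor and by 0.48 ± 0.11 (adjusted p = 0.0295) with E157D, and it was lower with E157D (log2 difference −0.70 ± 0.11, adjusted p = 0.000972) under the drug. The E157D call was lost without any 1 of the 6 E157D arrays (adjusted p up to 0.104). The 2 genes are close paralogs, and how far each probe also reads the other gene cannot be told from these data.

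Ephx2, the soluble epoxide hydrolase of cytosol and peroxisomes, had the largest log2 change with E157D among all 13006 tested features. Ephx2 read 8.87, 8.90 and 8.75 with the wild-type receptor in DMSO, 12.33, 12.05 and 11.98 with it under rosiglitazone, 7.36, 7.56 and 7.53 with E157D in DMSO and 11.48, 11.56 and 11.23 with E157D under rosiglitazone. Each group stood apart, with E157D below wild-type in both treatments. The change was 3.28 ± 0.13 (adjusted p = 4.81e-08) with the wild-type receptor and 3.94 ± 0.13 (adjusted p = 1.09e-08) with E157D. E157D cells were lower in DMSO (log2 difference −1.36 ± 0.13, adjusted p = 0.000156) and under rosiglitazone (−0.69 ± 0.13, adjusted p = 0.00259). The difference in DMSO was −0.86 without background correction (adjusted p = 0.000107).

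Cat encodes catalase, which breaks down the hydrogen peroxide that peroxisomal oxidases make, and its promoter window holds 1 of the 2 printed matches. Cat read 9.06, 9.10 and 9.46 with the wild-type receptor in DMSO, 10.59, 10.25 and 10.51 with it under rosiglitazone, 8.55, 8.71 and 9.13 with E157D in DMSO and 9.15, 9.53 and 9.18 with E157D under rosiglitazone. Every wild-type rosiglitazone array was above every other array. Cat rose by 1.25 ± 0.18 (adjusted p = 0.000399) with the wild-type receptor, read 0.49 ± 0.18 (adjusted p = 0.154) with E157D and was lower with E157D (log2 difference −1.16 ± 0.18, adjusted p = 0.000767) under rosiglitazone.

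The acyl-CoA oxidases, which catalyse the first step of beta-oxidation and release hydrogen peroxide, are represented by Acox3 and Acox2. Acox3 acts on branched fatty acids. Acox3 read 7.30, 7.40 and 7.40 with the wild-type receptor in DMSO, 7.51, 7.49 and 7.43 with it under rosiglitazone, 7.36, 7.24 and 7.27 with E157D in DMSO and 8.20, 7.95 and 8.15 with E157D under rosiglitazone. The E157D rosiglitazone arrays were above the other 9, and the rest were close together. Acox3 rose by 0.81 ± 0.10 (adjusted p = 0.000822) with E157D and read 0.11 ± 0.10 (adjusted p = 0.459) with the wild-type receptor, and under rosiglitazone E157D cells were higher (log2 difference 0.63 ± 0.10, adjusted p = 0.000982). Without background correction these called values were 0.45 and 0.36, both still called. Acox3 was the one member called higher in E157D cells.

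Acox2, the oxidase of bile acid precursors and branched fatty acids, is the other gene whose window holds a match. Acox2 read 4.98, 5.32 and 5.94 with the wild-type receptor in DMSO, 6.28, 6.40 and 6.45 with it under rosiglitazone, 5.60, 5.47 and 5.02 with E157D in DMSO and 4.99, 5.12 and 5.35 with E157D under rosiglitazone. It was detected on 1, 3, 2 and 0 of the 3 arrays in the same order, and the wild-type rosiglitazone arrays were the highest. Acox2 rose by 0.96 ± 0.22 (adjusted p = 0.00743) with the wild-type receptor, and by 0.27 without background correction (adjusted p = 0.0129). Under rosiglitazone it was at least 1.97-fold lower with E157D (adjusted p = 0.00243), where it was below detection. That bound holds with background correction; without it the measured difference was −0.34 on the log2 scale (adjusted p = 0.00391) in place of −1.22.

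Hsd17b4 is a bifunctional enzyme of the middle steps of beta-oxidation. Hsd17b4 read 11.87, 11.69 and 11.71 with the wild-type receptor in DMSO, 12.38, 12.02 and 11.95 with it under rosiglitazone, 11.61, 11.56 and 11.56 with E157D in DMSO and 11.29, 11.48 and 11.36 with E157D under rosiglitazone. Wild-type rosiglitazone arrays were the highest and E157D rosiglitazone arrays the lowest. Its change with the wild-type receptor was 0.36 ± 0.12 (adjusted p = 0.0489), a call lost when any 1 array other than the first wild-type DMSO or the third wild-type rosiglitazone array was left out (from 0.22, adjusted p = 0.186, without the first wild-type rosiglitazone array). With E157D it read −0.20 ± 0.12 (adjusted p = 0.422), and under the drug E157D cells were lower (log2 difference −0.74 ± 0.12, adjusted p = 0.00144).

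Scp2 encodes a thiolase for branched acyl groups and a sterol carrier. Scp2 read 12.39, 12.54 and 12.43 with the wild-type receptor in DMSO, 12.89, 12.84 and 12.75 with it under rosiglitazone, 12.52, 12.42 and 12.47 with E157D in DMSO and 12.26, 12.32 and 12.17 with E157D under rosiglitazone. The wild-type rosiglitazone arrays were the highest and the E157D rosiglitazone arrays the lowest, within a narrow range. Scp2 rose by 0.37 ± 0.09 (adjusted p = 0.0129) with the wild-type receptor and read −0.22 ± 0.09 (adjusted p = 0.242) with E157D, and the receptors differed by −0.57 ± 0.09 (adjusted p = 0.00139) under rosiglitazone.

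Ech1, an isomerase for unsaturated fatty acids found in peroxisomes and mitochondria, rose with both receptors. Ech1 read 12.82, 13.24 and 12.95 with the wild-type receptor in DMSO, 13.73, 13.87 and 13.77 with it under rosiglitazone, 12.78, 13.02 and 12.92 with E157D in DMSO and 13.69, 13.83 and 13.86 with E157D under rosiglitazone. All rosiglitazone arrays were above all DMSO arrays, and the receptors overlapped within each treatment. Ech1 rose by 0.78 ± 0.12 (adjusted p = 0.000748) with the wild-type receptor and by 0.89 ± 0.12 (adjusted p = 0.002) with E157D. The E157D response minus the wild-type response was 0.10 ± 0.17 (95% interval −0.27 to 0.48, adjusted p = 0.832).

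The remaining enzymes gave no call. Gnpat and Agps, which start ether lipid synthesis, read 0.31 ± 0.15 and −0.01 ± 0.14 with the wild-type receptor. With the replicate number as a block Gnpat passed (adjusted p = 0.0449), as it did without the first wild-type rosiglitazone array. Decr2 and Pecr, reductases of unsaturated acyl groups, read 0.27 ± 0.16 and 0.34 ± 0.25, and Decr2 passed only without the second wild-type DMSO array (adjusted p = 0.0267). Amacr, Crot and Phyh, of branched-chain and medium-chain fatty acid handling, were below detection on all 12 arrays. Ehhadh, the other bifunctional enzyme and a known PPAR target, was detected on 2 arrays, both of wild-type rosiglitazone cells, and was not tested. Its probe read 5.85, 5.89 and 5.40 in that group, against 4.63 to 4.96 on the other 9 arrays.

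**Figure D4:**
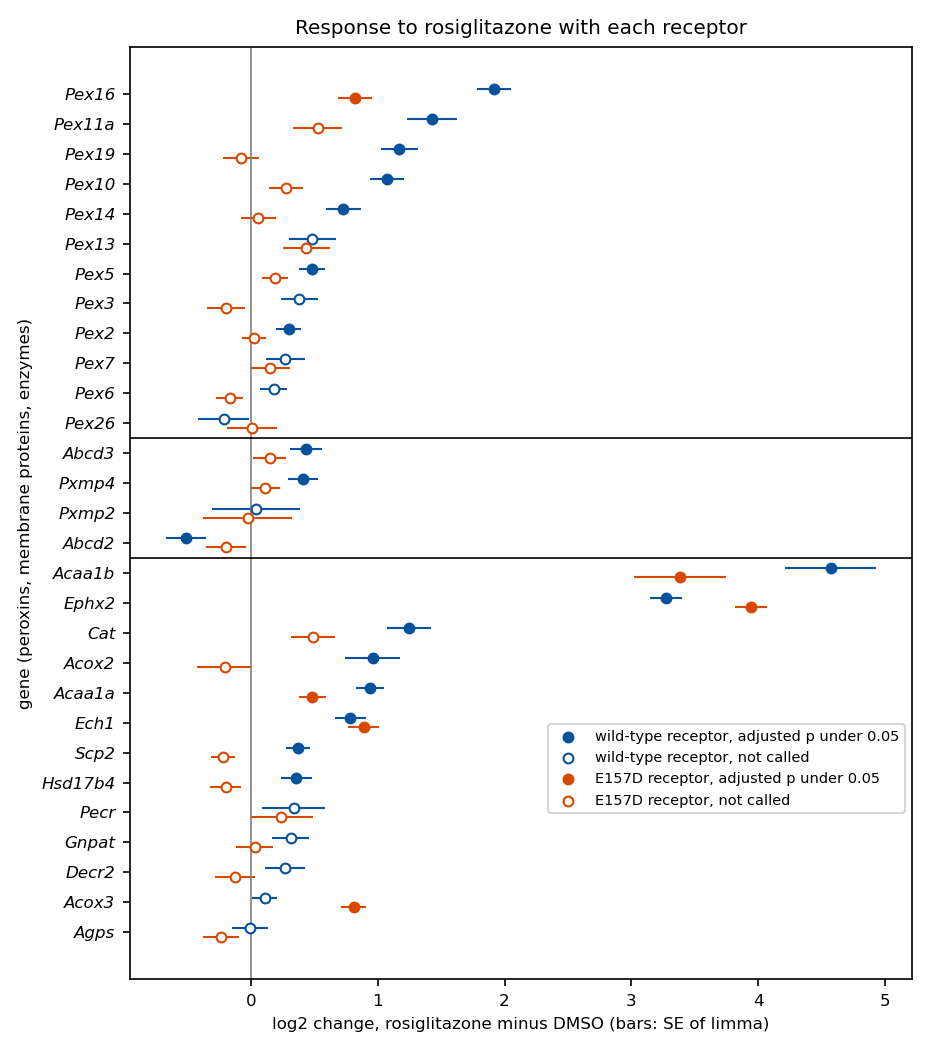
Points are the log2 change under rosiglitazone with either receptor for each of the 29 genes, with limma's SE (n = 3 arrays per group); filled points passed an adjusted p of 0.05. In all 17 genes rose with wild-type and 6 with E157D, where 12.3% and 2.31% of all features rose. Acox3 is filled for E157D and open for wild-type.

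The difference of the 2 responses, tested as an interaction, addresses whether the receptors responded unequally. The test called 3 members lower (below the wild-type response), Pex16, Pex19 and Scp2, and 1 higher, Acox3, while 1.5% of all features were called lower and 0.884% higher. The difference was −1.10 ± 0.19 (adjusted p = 0.0124) for Pex16, −1.25 ± 0.20 (adjusted p = 0.00837) for Pex19, −0.59 ± 0.13 (adjusted p = 0.0414) for Scp2 and 0.70 ± 0.14 (adjusted p = 0.0209) for Acox3. The estimate was below 0 for 11 of 12 peroxins, 3 of 4 membrane proteins and 10 of 13 enzymes, and for 6142 of all 13006 features. The medians were −0.46 for the peroxins and −0.39 for the enzymes, against 0.02 for all features, and that of the enzymes was −0.19 without background correction and with the authors' values. The 95% intervals lay below 0 for 7 peroxins and 6 enzymes (1 of them Acox2, below detection in E157D rosiglitazone cells) and above 0 for the enzymes Acox3 and Ephx2. An interval clear of 0 equals an unadjusted p under 0.05, and the share of all features at that threshold was not counted.

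Calls in this test depended on the settings. Scp2 was lost when any 1 of the 12 arrays was left out (adjusted p up to 0.103), and its 2 further probes did not pass. Acox3 was lost without the second or the third wild-type DMSO array, the second or the third E157D DMSO array, or the first or the third E157D rosiglitazone array (adjusted p up to 0.0603), and its value was 0.40 without background correction (adjusted p = 0.0178). Pex19 was lost when the gene's probes were averaged (adjusted p = 0.132), and Pex16 passed in all 19 other settings. Without background correction the test called 10 members lower, while lower calls among all 13006 features were 407 in place of 195. Acaa1b was among the 10, at −2.22 (adjusted p = 0.000663) in place of −1.19 ± 0.51 (adjusted p = 0.285). Pex10, at −0.80 ± 0.19 (adjusted p = 0.0531), did not pass, and it passed in 7 of 19 other settings: without background correction (−0.47, adjusted p = 0.0181), with median scaling (0.0465), the authors' values (0.022), detection on all 12 arrays (0.0328) or the replicate block (0.0393), and without the third wild-type DMSO array (0.0394) or the third E157D rosiglitazone array (0.0427). Acox2 was below detection in E157D rosiglitazone cells, so no size is given for its difference. Ephx2 had 0.67 ± 0.18 (adjusted p = 0.0783) and did not pass, except with detection on all 12 arrays (adjusted p = 0.0499). Further genes called with the wild-type receptor and not with E157D did not pass here, with values of −0.67 ± 0.19 for Pex14, −0.90 ± 0.28 for Pex11a, −0.76 ± 0.25 for Cat and −0.56 ± 0.17 for Hsd17b4. Each of these 4 passed without background correction and with the authors' values. Pex2 (−0.27 ± 0.14), Pex5 (−0.29 ± 0.15), Abcd3 (−0.29 ± 0.18) and Pxmp4 (−0.30 ± 0.17), also called with wild-type only, passed neither here nor in another setting. A failure to pass does not show that the receptors act alike.

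**Figure D5:**
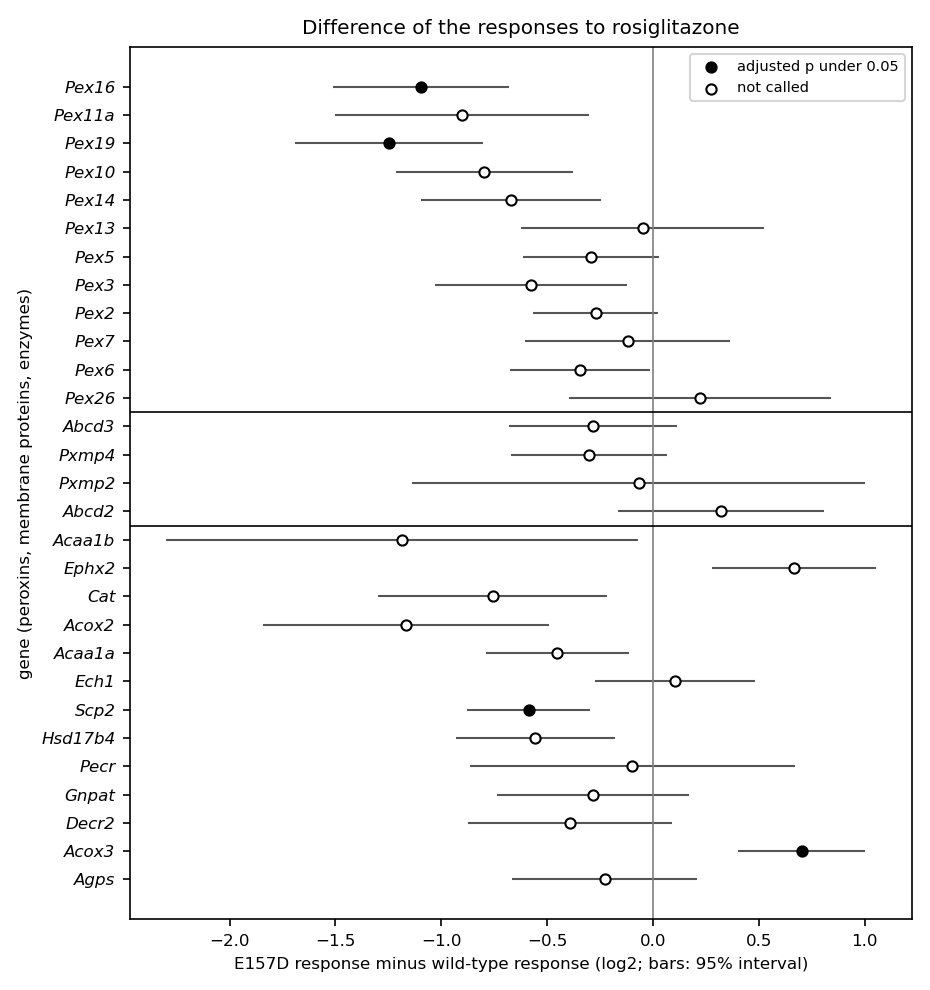
Points are the E157D response minus the wild-type response on the log2 scale for the 29 genes, with 95% intervals; filled points passed an adjusted p of 0.05. The points of 11 of 12 peroxins lie below 0 (6142 of 13006 among all features), and Acox3 (0.70) is the filled point above 0. The point of Acox2 rests on E157D rosiglitazone arrays that did not detect it.

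Where a gene had further detected probes, 21 probes of 13 genes, their signs were compared with the one used, for genes called in the comparison only. Of the 13 that belong to genes called with the wild-type receptor, 12 had the same sign and 6 were called, none in the opposite direction. For the receptors under rosiglitazone these numbers were 14 of 15 and 9, with 1 Abcd3 probe of opposite sign. Signs in uncalled results were not counted, and some disagreed. In the E157D response, where Pex3 and Pex7 were not called, a further probe of each changed opposite to the one used. That of Pex3 averaged 9.05 in DMSO and 9.17 under rosiglitazone, and the one used 9.75 and 9.56.

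A wider list of other peroxisomal genes had 30 tested. With the wild-type receptor 8 rose and 2 fell, with a median of 0.22, where 12.3% of all features rose and 14.4% fell. With E157D 2 of the 30 rose, with a median of 0.04, where 2.31% of all features rose. Under rosiglitazone 10 were lower with E157D and 1 was higher, where 9.26% of all features were lower and 10.5% higher. The higher one was Slc25a17, a peroxisomal carrier of cofactors (log2 difference 0.70), named after its value was seen. Crat, a carnitine acetyltransferase, rose by 1.59 ± 0.20 (adjusted p = 0.000206) with the wild-type receptor, and the E157D response minus the wild-type response was −1.68 ± 0.28 (adjusted p = 0.011). Mlycd, malonyl-CoA decarboxylase, rose by 1.11 ± 0.15 and 0.66 ± 0.15 with wild-type and E157D, the latter a call lost without the first or second E157D DMSO array or the first or the third E157D rosiglitazone array (adjusted p up to 0.109). Under rosiglitazone Idh1, an NADPH-producing dehydrogenase of cytosol and peroxisomes, was lower with E157D (log2 difference −1.09 ± 0.12, adjusted p = 0.000103), and so was the dehydrogenase Dhrs4 (−1.02 ± 0.13, adjusted p = 0.000272, and −0.58 without background correction). In DMSO 2 of the 30 were lower with E157D and none higher, where 0.7% of all features were lower and 0.423% higher. Idh1 was 1 of these 2 (log2 difference −0.73), a call lost in 4 other settings (adjusted p up to 0.0782).

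Genes of mitochondrial fatty acid oxidation were read for comparison. Of 18 tested, 16 rose with the wild-type receptor (median 0.88) and 8 with E157D (median 0.40), where 12.3% and 2.31% of all features rose. Under rosiglitazone 13 were lower with E157D (median −0.70), where 9.26% of all features were. The difference of responses had a median of −0.53. No test of these medians against those of the peroxisomal genes was made.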

How the data were processed

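For each of 12 arrays the authors deposited raw intensity values of 45281 probes beside a detection p-value, per the file headers, with arrays not yet normalized to each other. The smallest deposited intensity was 107, and the p-values have a step of 1 in 936. The authors' own processed intensity values came as a second table on a linear scale, with column medians of 172.5 to 178.1. With their making not given in the sources used here, these served as an alternative only.

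Normexp background correction, an offset of 16, quantile normalization and the log2 transform were applied with neqc (limma 3.58.1, R 4.3.3), so a change common to all genes cannot be seen. Probes needed a detection p under 0.05 on 3 or more arrays, and 18921 met this. The platform annotation gave 1 symbol to 34885 probes, several to 18 and none to 10378. Each gene was represented by its brightest kept probe on average. All 33 members matched RefSeq (GRCm38.p6) by gene number. A fit of 4 group means over 13006 features (lmFit, eBayes, 8 residual and 3.9 prior degrees of freedom) gave 5 comparisons, adjusted by Benjamini-Hochberg over all features. Where no array of a group detected a probe, the change is a bound ("at least"), against the higher of its own value and the lowest detected value. The script was tested on simulated data.

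Members and gene lists were chosen with earlier results of these data known. Every array's value was given for members called with the wild-type receptor at a log2 change of at least 1 in size, or called in another comparison, 19 in all. Other peroxisomal genes were named if called at that size, and Slc25a17, below it, was added after its value was seen.

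In the wild-type response, arrays with the same replicate number shared their deviations from the group mean (correlations of 0.129 to 0.239, all above 0.1). The labels do not say that the numbers mark pairs, and this reading comes from these values only. The main fit did not pair the arrays in any comparison. Changes, SEs and adjusted p-values are from an unpaired fit unless the replicate block is named. Each other comparison had a pair below 0.1. Alternatives were no background correction, median scaling, the authors' values, no filter, detection on all 12 arrays, the mean of a gene's probes, a replicate block and each array left out.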

Additional observations from a re-analysis of the deposited data

Results flagged for a closer look

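The response to rosiglitazone differed between the receptors at an adjusted p under 0.05, by limma's interaction test, for 4 of the 29 tested genes, 3 lower and 1 higher, where 1.5% of all features were called lower and 0.884% higher. The E157D response minus the wild-type response was −1.10 for Pex16, −1.25 for Pex19 and −0.59 for Scp2, each the smaller with E157D, and 0.70 for Acox3, the larger with E157D. Pex16 rose with both receptors, Pex19 and Scp2 with the wild-type receptor, and Acox3 with E157D. Beside these values, 9 of 10 fibroblast markers fell and 5 of 5 adipocyte markers rose under the drug with the wild-type receptor, and with E157D 2 of 10 fell and 2 of 5 rose. Of all features 14.4% fell and 12.3% rose with the wild-type receptor, and 1.79% fell and 2.31% rose with E157D. The part of the markers in these differences was not tested.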

How the results depend on the processing

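Under 19 other settings no call among the 145 log2 changes of the 29 members turned its direction, and 13 of 18 calls in the wild-type response, 5 of 6 in the E157D response, 1 of 2 between receptors in DMSO, 14 of 18 between them under rosiglitazone and 1 of 4 for the difference of responses were kept in every setting. With the replicate number as a block the difference of responses had 5 members lower in place of 3 (Pex10, adjusted p = 0.0393, and Pex11a, 0.0302, were gained), and Pex11a passed with E157D (0.0463) and in DMSO (0.00979); beside Pex13 and Gnpat, the block changed no other call. That count was 10 without background correction and with the authors' values, 5 with median scaling and 1 with the mean of a gene's probes, and 2 to 4 with 1 array left out. Its count of members higher was 2 with probes detected on all 12 arrays, and 0 or 1 with 1 array left out. The count lower with the wild-type receptor was 0 without background correction, with the authors' values, without the filter and with the mean of probes, and 0 or 1 with 1 array left out. The peroxin median with the wild-type receptor was 0.36 without background correction (0.37 to 0.57 with 1 array left out). The enzyme median with E157D was −0.037 without the filter (−0.014 to 0.47 with 1 array left out), a setting that adds 4 genes detected on fewer than 3 arrays. Between receptors in DMSO the enzyme median was −0.16 with median scaling (−0.16 to −0.062 with 1 array left out). Between receptors under rosiglitazone it was −0.34 without background correction, −0.75 with median scaling, −0.36 with the authors' values and −0.26 without the filter and with detection on all 12 arrays. For the difference of responses it was −0.19 without background correction and −0.19 with the authors' values. Beyond what the settings construct, the cause of these shifts was not tested. As a hint from the data and not from the design, 11 of the 12 arrays correlated best with an array of their own replicate number. There were 3 arrays a group, and in E157D DMSO cells Acox2 was detected on 2 of them and Acaa1b on 1.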

Other observations

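Among the 18 tested genes of mitochondrial fatty acid oxidation, 3 had a response that differed between the receptors, all lower with E157D, where 1.5% of all features were called lower and 0.884% higher. The E157D response minus the wild-type response was −1.16 ± 0.27 (adjusted p = 0.0435) for Cpt1b, a carnitine palmitoyltransferase of muscle and fat, −0.64 ± 0.14 (adjusted p = 0.0312) for Cpt2, the inner-membrane enzyme, and −0.83 ± 0.19 (adjusted p = 0.0388) for Decr1, the mitochondrial dienoyl-CoA reductase. These calls were lost in 14, 9 and 11 of 19 other settings, with an adjusted p of up to 0.11. Without background correction the values were −0.31 for Cpt1b (adjusted p = 0.089) and −0.46 for Decr1 (adjusted p = 0.0145).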
